A study of Canis lupus familiaris with 77 samples.

Results

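cfa-miR-378 is 1 of the 650 miRNAs with at least 1 read in a miR-seq (small RNA sequencing) survey of dog tissues. It was picked by name as the row whose name starts with cfa-miR-378, and the same row also carries the human and rat names of miR-378a-3p. Its level was read in every library and compared between tissues. The tissues came from 5 untreated male Beagle dogs of 10 months of age whose organs were flushed with saline before collection. The tissues therefore share dogs, but the labels do not number them, and the comparisons below treat the libraries as independent. Libraries of 16 tissues were used: 5 each of heart, skeletal muscle (the quadriceps), thymus, liver, jejunum, duodenum, kidney, ileum, brain, bone marrow, pancreas, testis, lung and plasma, 4 of colon and 2 of sciatic nerve, 76 in all. The samples are whole pieces of tissue, so a lower share of a cell type and less RNA per cell of that type cannot be told apart. Bone marrow and plasma were labelled as samples of 2 mL, and their RNA was isolated by other procedures than that of the solid tissues. Accounts of how the sciatic nerve samples were pooled differ, so it is not settled that these libraries stand for separate dogs.

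miRNAs are short RNAs that pair with messenger RNAs and lower their translation or stability, and each comes from one strand, or arm, of a hairpin precursor. In mammals the miR-378 hairpin lies in an intron of PPARGC1B, which encodes PGC-1β, a coactivator of genes of mitochondrial energy metabolism, and the 3p arm is the strand that is mostly kept. miR-378 has been studied for its part in fatty acid oxidation, in fat tissue and in muscle. In the gene table of the dog assembly UU_Cfam_GSD_1.0, the only entry named for miR-378, MIR378, sits inside PPARGC1B on chromosome 4. The mature sequence is not shown because no table with it was used here.

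Levels are given in RPM, the share of a library's miRNA reads on a scale where 10000 RPM is 1% of these reads. The libraries held 157871 to 7896424 such reads, with a median of 1364823. miR-378 had 92 to 438888 reads per library and 2491444 in all, or 1.97% of all miRNA reads. It was found in 76 of 76 libraries, so no level rests on an undetected value. The width of the 95% Wilson interval of its share was 0.575% to 41.1% of the share itself, which covers counting error alone, because PCR copies of 1 molecule are counted as separate reads. No pair of libraries of the same tissue had identical counts, and in the 147 pairs compared the lowest chi-square per degree of freedom was 10.3.

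Some libraries were low in the markers of their labelled tissue beside others of that tissue, and several of them set the extremes of miR-378. The markers of each tissue were summed per library, and in 9 libraries of 4 tissues the sum was under 15% of that of the highest library of the same tissue. Among these 9 the highest share was 10.8%, and the next library, of ileum, was at 19.0%. In the thymus libraries the sum of miR-181a and miR-181b, which are abundant in developing T cells (and, in these data, in brain), was 454852 RPM in replicate 1, 55210 in replicate 2, 45230 in replicate 3, 527331 in replicate 4 and 56698 in replicate 5. The white cell markers miR-223, miR-142 and miR-150 summed to 291, 350 and 546 RPM in thymus replicates 2, 3 and 5 and to 16606 and 11695 RPM in replicates 1 and 4. Thus 3 of the 5 libraries labelled thymus were low in both lists. Skeletal muscle replicate 4 held 690 RPM of miR-1, miR-133a and miR-206, against 38204 to 112138 RPM in the other 4 muscle libraries. Testis replicates 2 and 3 held 678 and 27.6 RPM of miR-202, miR-506, miR-508b and miR-449a, against 8000 to 11945 RPM in the other 3 testis libraries. Duodenum replicates 3, 4 and 5 held 1115, 787 and 11035 RPM of the intestinal miR-194 and miR-215, against 60888 and 135777 RPM in replicates 1 and 2. A low sum is relative to the same tissue and does not by itself mean a wrong label. Testis replicate 2 was still above every library of another tissue (at most 56.8 RPM). Duodenum replicate 5 was above every library from outside the intestine (at most 9977 RPM) and above colon replicates 1 and 2 (7261 and 7100 RPM). The lung list (miR-34b and miR-449a) reached at most 51.1 RPM in any lung library and could not be used as a check. The levels, the fits, the enrichment rule and the arm ratio are therefore given with and without them. They were picked from the marker sums, not from miR-378, but after earlier results of the data were known. What else these libraries contain, and its part in the miR-378 level, was not tested.

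miR-378 was highest in heart and skeletal muscle. In heart it was at 55581, 76965, 70410.4, 40602 and 64685 RPM in replicates 1 to 5. In skeletal muscle it was at 58018, 123404, 68457, 5462 and 43898 RPM. The mean was 61649 ± 14145 RPM in heart and 59848 ± 42805 RPM in skeletal muscle (SD, n = 5 each). The muscle library at 5462 RPM is the one low in muscle markers, and the other 4 muscle libraries lay between 43898 and 123404 RPM, overlapping the 5 heart libraries. By its tissue median miR-378 ranked 6 among the miRNAs of heart and 5 among those of skeletal muscle.

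In thymus miR-378 was at 11242, 73560.1, 60222, 5621 and 51826 RPM. The 3 libraries low in miR-181 and in white cell markers were the 3 with high miR-378, and the ranges of both sets were far apart, 51826 to 73560.1 RPM against 5621 to 11242 RPM. The mean was 40494 ± 30343 RPM (SD, n = 5). The median of the 5 libraries, 51826 RPM, would place thymus next to skeletal muscle. The median of the 2 libraries with thymus markers was 8431 RPM, between sciatic nerve and ileum. Striated muscle miRNAs stayed low in all 5 thymus libraries, from 95.4 to 456 RPM in sum, compared with 44222 to 112875 RPM in heart. The red cell list (miR-451, miR-144 and miR-486) moved with the split. It summed to 63723, 92479 and 44927 RPM in replicates 2, 3 and 5 and to 20569 and 4774 RPM in replicates 1 and 4. Most of this was miR-486, with a median of 43525 RPM over the 5 thymus libraries against 1407 RPM for miR-451. With the reads of this list taken out of the total, miR-378 was 54264 to 78566 RPM in replicates 2, 3 and 5. This step can only raise miR-378, so whether red cells had a part in the split was not tested. In replicates 1 and 4 miR-378 was then 11478 and 5648 RPM.

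In liver miR-378 was at 30788, 26794, 31213, 32878 and 35410.0 RPM, with a mean of 31417 ± 3158 RPM (SD, n = 5), and the coefficient of variation over these 5 libraries (10.1%) was the lowest of all 16 tissues. In kidney, the other tissue with many mitochondria in which striated muscle markers were low, it was at 9272, 13182, 14852, 18418 and 15767 RPM, with a mean of 14298 ± 3389 RPM (SD, n = 5). All 5 liver libraries lay above all 5 kidney libraries. Every liver and kidney library lay below every heart library, and the kidney libraries overlapped those of jejunum, duodenum and ileum.

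The intestine formed a series of overlapping levels. The jejunum libraries held 24968, 13457, 15221, 38579 and 30218 RPM. The 4 colon libraries held 19920, 20540.2, 19645 and 24566 RPM, all within the range of jejunum. The duodenum libraries held 32823, 17938, 10417, 16994 and 18476 RPM, the last 3 being those low in intestinal markers. Ileum was lower, at 7953, 8160.4, 7927, 14710.0 and 9226 RPM, and its highest library, replicate 4, was also the ileum library with the lowest intestinal markers. The 2 sciatic nerve libraries, at 13657 and 11468 RPM, fell between kidney and ileum.

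The other 6 tissues were lower. Brain held 2848, 3304, 2384, 2407 and 1224 RPM. Bone marrow held 1904, 2393, 1848, 2386 and 2759 RPM. These 2 tissues overlapped and neither had a library above 3304 RPM. Pancreas held 1901, 2403, 1562, 8443 and 2031 RPM, with replicate 4 far above the other 4 although its pancreas markers (miR-216a, miR-216b and miR-217) were the highest of the group. Testis held 1869.95, 11060.4, 4276, 1803 and 1717 RPM, and the 2 highest were the 2 libraries low in testis markers. Thus in pancreas and testis the group means (3268 and 4145 RPM) were well above the medians (2031 and 1869.95 RPM). Lung held 722, 1149.6, 1156, 637 and 1505 RPM. Plasma held 335, 1086, 671, 723 and 557 RPM, the lowest tissue, and between 54.4% and 81.6% of its miRNA reads came from the red cell miRNAs miR-451, miR-144 and miR-486.

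**Figure D1:**
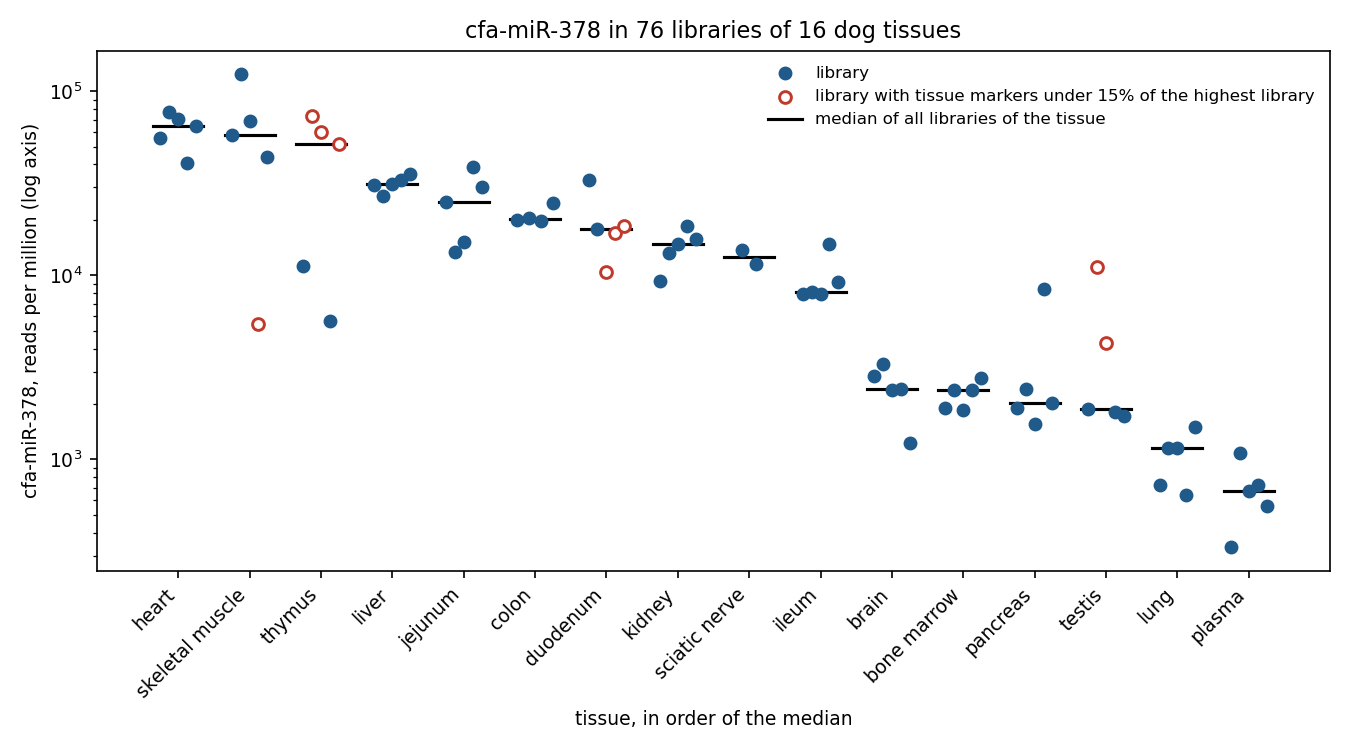
cfa-miR-378 in RPM (log axis) in each of the 76 libraries, with the tissues in order of their median (black bar). Open red circles are the 9 libraries whose tissue markers were under 15% of those of the highest library of their tissue. They include the lowest skeletal muscle library, the 3 highest thymus libraries and the 2 highest testis libraries.

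The tissue medians spanned 96.4-fold, from 64685 RPM in heart to 671 RPM in plasma, and differences between tissues made up 88.1% of the variance of log2(RPM + 1) over the 76 libraries. The levels fell into an upper group of 10 tissues and a lower group of 6. The 46 libraries of the upper tissues were all at or above 5462 RPM. Of the 30 libraries of the lower tissues, 28 were below that value, and the exceptions were pancreas replicate 4 and testis replicate 2. When the 9 libraries low in markers were left out, 39 libraries of the upper tissues lay at or above 5621 RPM and pancreas replicate 4, at 8443 RPM, was the highest of the 28 lower ones.

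The order of the tissues was only partly resolved by the spread between libraries. Neighbours in the order of medians were compared on log2(RPM + 1) with a two-sided exact permutation test, adjusted by Benjamini-Hochberg over the 15 pairs. After adjustment 0 of 15 neighbouring pairs passed a limit of 0.05, and 2 pairs had an unadjusted exact p under 0.05. These were ileum over brain, with a difference of 2.01 (mean log2 of 13.18 against 11.18), and testis over lung, with a difference of 1.64 (11.59 against 9.94). Both had an exact p of 0.00794, the smallest that 5 against 5 libraries can give, and an adjusted p of 0.0595, and in both pairs the libraries did not overlap. Over 15 pairs, 2 pairs alone at this smallest p cannot reach an adjusted p under 0.05. The adjusted result therefore does not show that these tissues are alike. In the 2 pairs that include sciatic nerve no exact p could fall below 0.0476. The other 13 pairs had exact p from 0.0952 to 0.897 and their libraries overlapped, so heart, skeletal muscle and thymus could not be ordered with all libraries. Without the 9 libraries low in markers 0 neighbouring pairs passed as well. These pairs kept the order of all libraries, in which thymus stands between skeletal muscle and liver. With 2 thymus libraries left no exact p of its pairs could fall below 0.0476, so this result does not show that they are alike. The 2 thymus libraries (5621 and 11242 RPM) lay wholly below heart (from 40602 RPM) and skeletal muscle (from 43898 RPM). Thymus and liver even changed places between the median and the mean log2, with mean log2 values of 14.72 and 14.93.

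A rule for tissue enrichment was also applied. A miRNA counted as enriched in a tissue where its mean was more than 5 times that of all other libraries and an exact rank-sum test, adjusted over the miRNAs detected in the tissue, gave p under 0.05. By this rule 361 of 650 miRNAs (55.5%) were enriched in at least 1 tissue, and miR-378 was enriched in 0 of 16. The largest folds were 3.72 in heart (61649 RPM against 16566 RPM, exact rank-sum adjusted p = 0.00184) and 3.59 in skeletal muscle (59848 against 16693 RPM, exact rank-sum adjusted p = 0.0447). In heart 2.67% and in skeletal muscle 2.13% of the detected miRNAs met both limits. miR-378 was significantly lower than in the other libraries in plasma (fold 0.0323, exact rank-sum adjusted p = 2.22e-05) and in lung (fold 0.0496, exact rank-sum adjusted p = 0.00434). A stricter rule asked that a tissue's median exceed 5 times the highest library outside that tissue, which 22.6% of the miRNAs met, and for miR-378 this ratio was at most 0.754, in skeletal muscle. So miR-378 was among the most abundant miRNAs of heart and muscle without meeting either rule there. Without the 9 libraries low in markers the folds were 4.14 in heart and 4.93 in skeletal muscle, still under the limit. With libraries scaled by TMM (below) skeletal muscle alone met the first rule, with a fold of 5.91, and with medians in place of means heart (6.98) and skeletal muscle (5.57) did.

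Each tissue was then set against the average of the remaining 15 in an edgeR quasi-likelihood fit over all 76 libraries, with TMM scaling (trimmed mean of M-values, which sets library sizes so that most miRNAs do not change) and p-values adjusted over the 480 miRNAs that passed the filter on low counts. miR-378 differed between tissues (F = 31.1, edgeR adjusted p = 1.28e-23), as did 99.6% of the miRNAs tested, and it ranked 84 of 480 by F. Averages in this fit were taken on the log2 scale, so its folds are not ratios of mean RPM like those of the enrichment rule. miR-378 was higher in 8 tissues, lower in 6 and not called in 2. In skeletal muscle it was 13.1-fold higher (log2 difference 3.72, SE 0.261, edgeR adjusted p = 2.79e-20), where 26.5% of the miRNAs were called higher. In heart it was 8.45-fold higher (log2 difference 3.08, SE 0.273, edgeR adjusted p = 1.27e-15), with 21.9% of the miRNAs called higher. Both differences exceeded those of most miRNAs in the same tissue, as miR-378 ranked 21 of 480 in skeletal muscle and 14 of 480 in heart.

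Liver followed with a log2 difference of 1.92 (SE 0.303, edgeR adjusted p = 2.75e-07), where 23.3% of the miRNAs were called higher. Kidney was at 1.35 (SE 0.321, edgeR adjusted p = 0.000451), where the share called higher was 24.2%. In the intestine the log2 differences were 1.42 in jejunum, 1.31 in duodenum and 1.26 in colon, all called higher (edgeR adjusted p from 0.000232 to 0.00589), beside 27.3%, 21.0% and 18.5% of the miRNAs. Ileum, the last part of the small intestine, was not called, at -0.11 (95% interval -0.85 to 0.64, edgeR adjusted p = 1), beside 27.7% of its miRNAs called in either direction. Sciatic nerve was not called either, at 0.06 (95% interval -1.07 to 1.18, edgeR adjusted p = 1), beside 39.2%.

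Thymus was called higher with all 5 libraries, at a log2 difference of 2.28 (SE 0.293, edgeR adjusted p = 2.90e-09), where 21.2% of the miRNAs were called higher. Without the 9 libraries low in markers it was at -0.32 (95% interval -1.02 to 0.38, edgeR adjusted p = 0.624). The higher level of the thymus group therefore rested on the 3 libraries low in thymus markers. No other call was lost or gained among the 16 tissues when these libraries were left out, and in skeletal muscle and heart the log2 differences became 4.23 and 3.32. The F over all tissues rose from 31.1 to 88.8.

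Lung was the lowest in this fit, and plasma with library size alone (-4.06 against -3.41 for lung). Lung stood at a log2 difference of -3.72 (SE 0.508, edgeR adjusted p = 1.74e-08), where only 8.75% of the miRNAs were called lower, and miR-378 ranked 8 of 480 from the lowest. Plasma was at -3.42 and brain at -3.28, beside 24.8% and 28.1% of the miRNAs called lower. Bone marrow was at -2.69 (24.6% called lower), pancreas at -1.60 (19.2%) and testis at -1.59 (16.0%), and the edgeR adjusted p of these 5 tissues ran from 1.34e-08 to 0.00164. Testis also moved with the libraries used. Without the 9 libraries, which leaves 3 testis libraries at 1717 to 1869.95 RPM, it was at -3.01 (SE 0.368, edgeR adjusted p = 2.97e-10). Among the low tissues, pancreas stood at -2.22 without its replicate 4 and testis at -2.47 without its replicate 2. Bone marrow ran from -2.86 to -2.06 (without its replicate 1) as each of the 76 libraries was left out, and libraries of other tissues moved it nearly as much as its own.

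**Figure D2:**
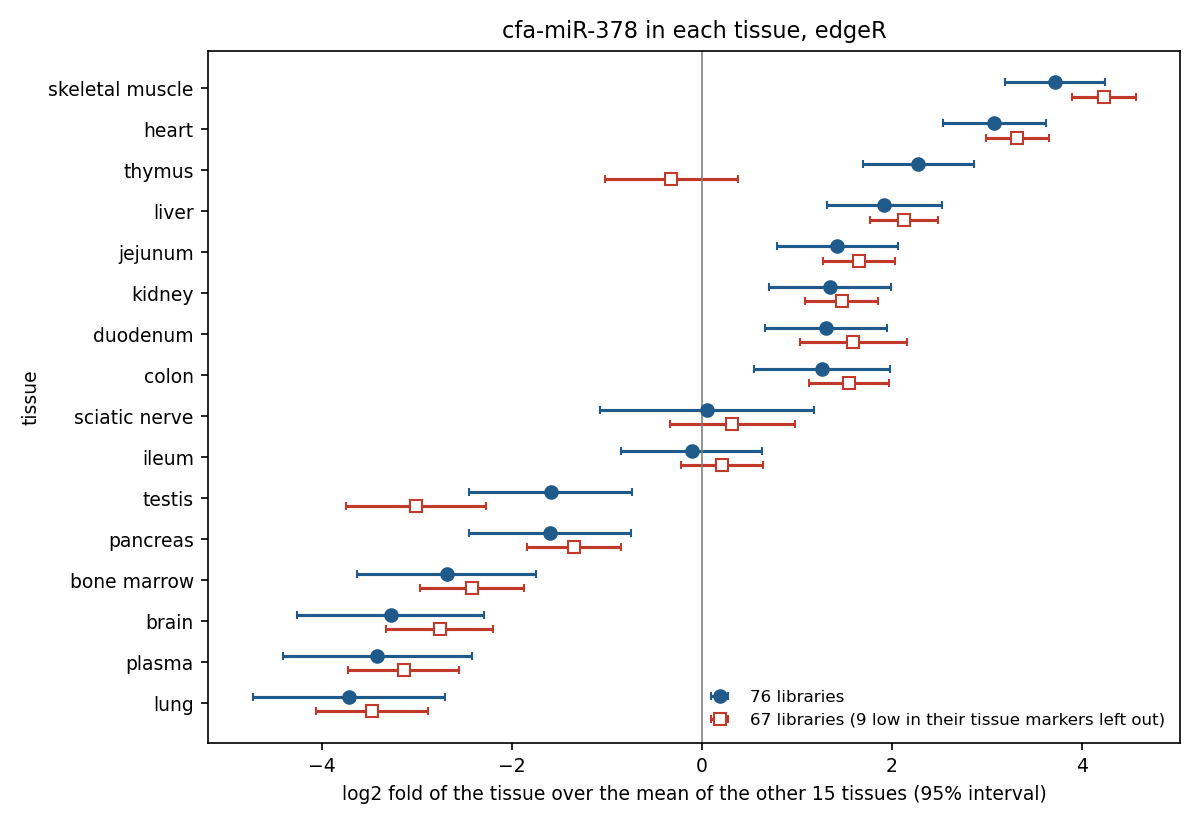
log2 fold of cfa-miR-378 in each tissue over the mean of the other 15 tissues on the log2 scale, with 95% intervals, from edgeR. Blue circles use all 76 libraries and red squares the 67 libraries left after taking out the 9 with low tissue markers. Thymus moves from 2.28 to -0.32 and testis from -1.59 to -3.01, while the other tissues keep their side of 0 except ileum, whose intervals include 0 both times.

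**Figure D3:**
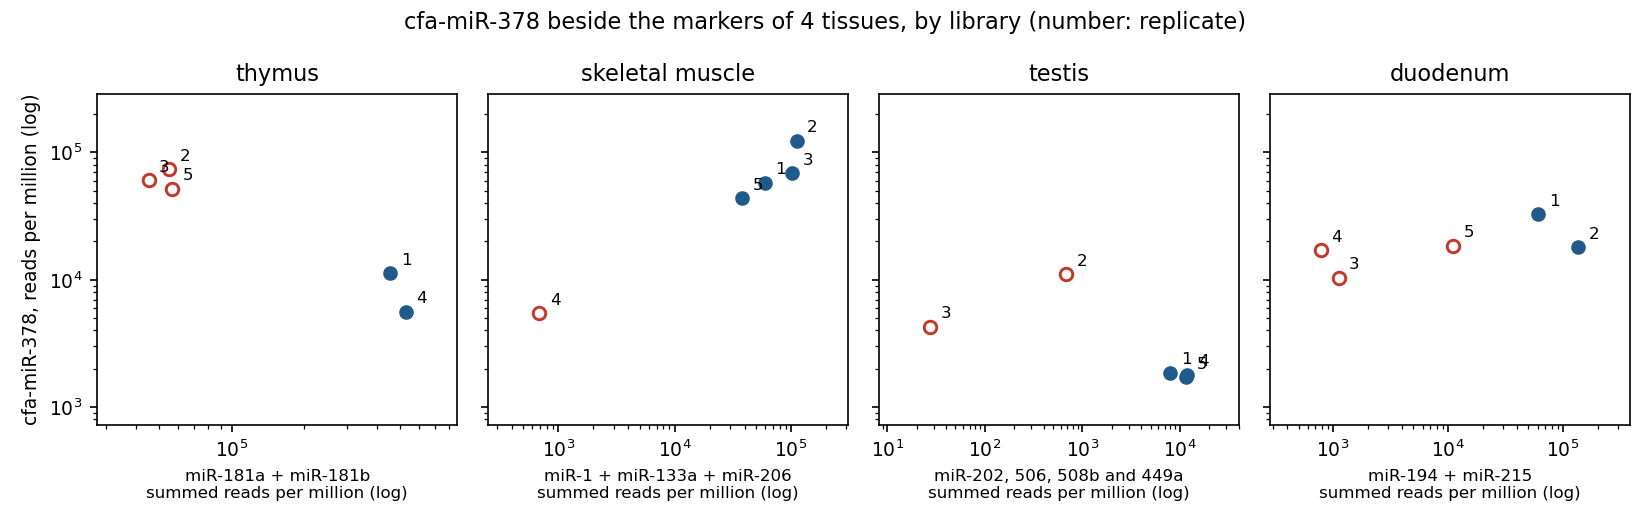
cfa-miR-378 (vertical, RPM, log axis) against the summed tissue markers (horizontal, RPM, log axis) for each library of thymus, skeletal muscle, testis and duodenum; the numbers are replicates and the open red circles are the libraries low in markers. In thymus and testis the libraries low in markers are the high ones for miR-378, in skeletal muscle the library low in markers is the low one, and in duodenum the 2 sets overlap.

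Heart, skeletal muscle, kidney and liver, whose cells are rich in mitochondria, were compared as a group with the other 12 tissues. Each tissue had the same weight, and levels were averaged on the log2 scale, so the fold below is not a ratio of mean RPM. miR-378 was 8.84-fold higher in the group (log2 difference 3.14, SE 0.209, 95% interval 2.73 to 3.56, edgeR adjusted p = 4.83e-21), while 23.5% of the 480 miRNAs were called higher and 16.2% lower. It ranked 8 of 480, and the median of all miRNAs was -0.16. Brain, another tissue with high energy use, was among the low tissues for miR-378, and with brain counted in the group the log2 difference was 1.85 (SE 0.193, edgeR adjusted p = 5.62e-13). With plasma and bone marrow left out of the comparison it was 2.73 (SE 0.218, edgeR adjusted p = 3.32e-17), and without the 9 libraries low in markers it was 3.48 (SE 0.134, edgeR adjusted p = 2.03e-31). Jejunum and duodenum, outside the group, had libraries within the range of liver. All 4 colon libraries (from 19645 RPM) lay above all 5 kidney libraries (up to 18418 RPM). Against the other 15 tissues jejunum (1.42) stood no lower than kidney (1.35). With TMM scaling, however, the kidney median (23934 RPM) was above those of jejunum (20960 RPM), colon (20823 RPM) and duodenum (20570 RPM).

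Within the 4 tissues, 3 of 6 pairs were called. Skeletal muscle exceeded kidney by a log2 difference of 2.22 (SE 0.525, edgeR adjusted p = 0.000458), beside 17.9% of the miRNAs called higher, and by 1.54 without skeletal muscle replicate 2. It exceeded liver by 1.69 (SE 0.516, edgeR adjusted p = 0.00552), beside 21.7%, a call that was lost without skeletal muscle replicate 2 (1.25). Heart exceeded kidney by 1.62 (SE 0.515, edgeR adjusted p = 0.0100), beside 13.5%. Heart over liver, at 1.09, was not called with all libraries (95% interval 0.08 to 2.10, edgeR adjusted p = 0.0699, 25.2% of the miRNAs called higher) and was called without the 9 libraries, at 1.12 (edgeR adjusted p = 0.00133). Heart and skeletal muscle differed by -0.60 (95% interval -1.60 to 0.41, edgeR adjusted p = 0.506), beside 12.7% of the miRNAs called in either direction. Kidney and liver differed by -0.53 (95% interval -1.54 to 0.47, edgeR adjusted p = 0.450), beside 31.7%, although their RPM did not overlap. TMM scaling raised the kidney median from 14852 to 23934 RPM, and with library size alone the difference was -1.14, also not called. For these last 2 pairs the data do not show which tissue is higher, and the intervals do not show that they are alike.

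The scaling of the libraries shifted these values. Relative to TMM, the median over all miRNAs moved by -0.65 to 1.12 on the log2 scale with DESeq2 size factors or with library size alone, and by more than 0.1 in 20 of 23 comparisons. With library size alone heart and skeletal muscle changed order (0.043), kidney was not called above the other tissues (0.63, edgeR adjusted p = 0.153) and skeletal muscle was not called above liver (0.93, edgeR adjusted p = 0.105). In these 3 comparisons the median move of all miRNAs was 0.27, -0.65 and -0.37. After subtracting that move the miR-378 differences were -0.23, 1.28 and 1.30. The subtraction largely restores the centre set by TMM, so values nearer to those of TMM follow from the step itself. They do not show that the order or the calls hold under another scaling. The 4-tissue group stood at 2.56 with library size alone and at 2.94 with DESeq2 size factors.

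The miRNAs of the red cell list took 9.99% to 27.5% of the reads in heart and 4.85% to 17.2% in skeletal muscle. The highest shares were in heart replicate 4 and skeletal muscle replicate 4, which also held the least miR-378 in their groups. Most of the list was miR-486, with a median of 113425 RPM in heart and 79475 RPM in skeletal muscle. The medians of miR-451 there were 2029 and 2821 RPM. Whether these miR-486 reads came from red cells was not tested. The reads of the red cell list were taken out of the total, a step added after the data were seen. This step changes only the total and can only raise miR-378, so the part of red cells in these levels was not tested. The heart libraries then held 61751, 86965, 80089, 56001 and 73625 RPM of miR-378. The order of the first 10 tissues stayed as before. Plasma rose from a median of 671 to 1817 RPM and passed lung (1212), which narrowed the span of the tissue medians to 60.8-fold.

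The opposite arm of the hairpin, deposited under the human name hsa-miR-378a-5p, was rare. It had 12230 reads in 74 of 76 libraries, or 4.91 reads per 1000 reads of cfa-miR-378. In skeletal muscle it was at 469, 635, 539, 9.07 and 488 RPM and in heart at 231, 500, 237, 429 and 463 RPM, so that the muscle library low in muscle markers was low in both arms. In thymus it was at 17.5, 279, 187, 21.9 and 235 RPM, with the same 3 libraries high. Liver, at 63.2 to 164 RPM, and kidney, at 47.4 to 156 RPM, overlapped. In plasma 0 of 5 libraries had more than 3 reads of it.

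In the fit over all tissues the 5p arm was higher in the 4-tissue group by a log2 difference of 3.80 (SE 0.264, edgeR adjusted p = 2.14e-20). Its difference in thymus also went from 2.05 to -1.04 without the 9 libraries low in markers (edgeR adjusted p = 1.37e-05 and 0.176). Of the 6 pairs it was called in 3: skeletal muscle over liver (2.94, edgeR adjusted p = 0.000124), skeletal muscle over kidney (2.14, edgeR adjusted p = 0.00414) and heart over liver (2.10, edgeR adjusted p = 0.00403). Heart over kidney stood at 1.30 (edgeR adjusted p = 0.0926) and, without those 9 libraries, at 1.42 (edgeR adjusted p = 0.00443). In liver the 5p arm was 1.48 above the other 15 tissues (edgeR adjusted p = 0.00145), compared with 1.92 for the 3p arm.

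The ratio of the arms differed between tissues. Tissue medians ran from 1.44 reads of the 5p arm per 1000 of the 3p arm in ileum to 8.77 in bone marrow, a 6.09-fold span against the 96.4-fold span of the miR-378 level itself. On log2 of the ratio, with 0.5 reads added to each arm, tissues accounted for 55.0% of the variance (F = 4.90, permutation p = 1e-05 over 100000 resamples, the smallest these can give). Without the 9 libraries low in markers F was 4.80 (permutation p = 2e-05), and without plasma replicate 1 it was 7.91. The ratios were 8.08, 5.15, 7.88, 1.66 and 11.1 in skeletal muscle and 5.54, 3.60, 9.54, 7.57 and 9.92 in kidney. They were 2.62, 2.36, 2.19, 4.99 and 3.40 in liver, where 4 of 5 libraries lay below all kidney libraries, and 1.88, 2.45, 1.71 and 2.73 in colon. All 4 colon libraries also lay below all kidney libraries. The bone marrow ratio rests on 3 to 8 reads of the 5p arm per library, and 31 of the 76 libraries had under 20 such reads, so their ratios are coarse.

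**Figure D4:**
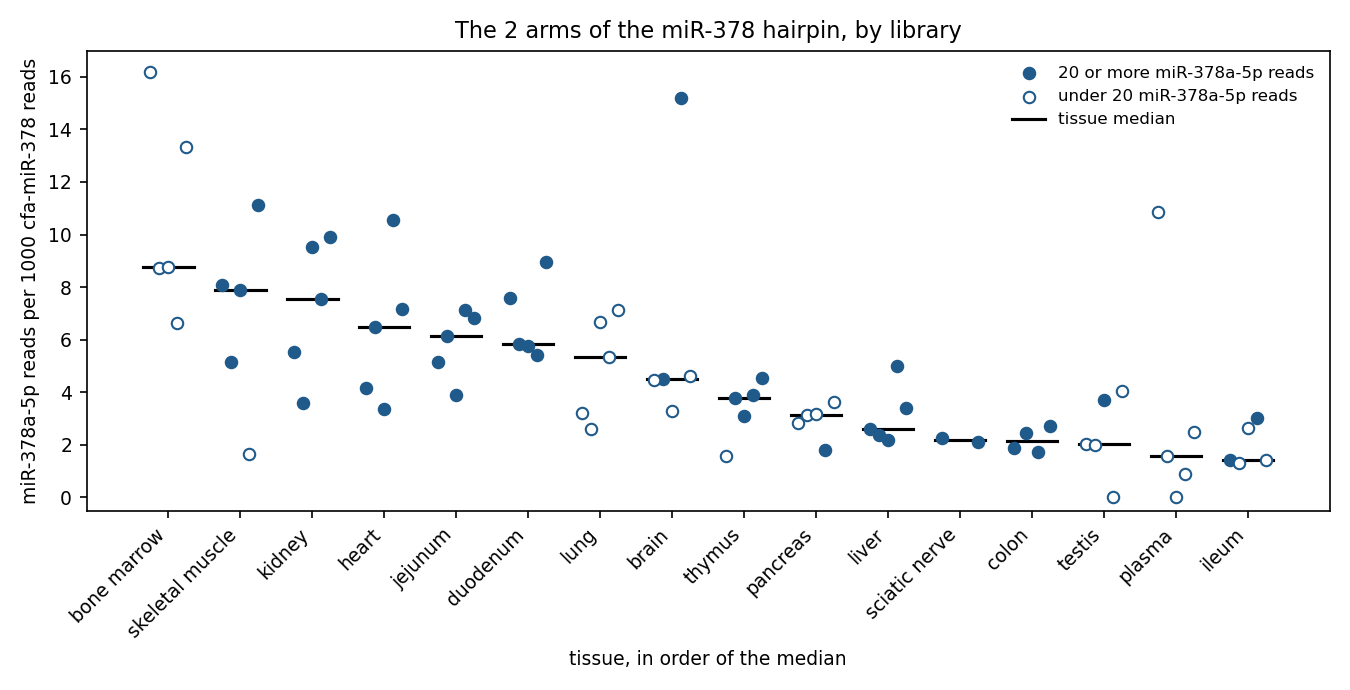
Reads of miR-378a-5p per 1000 reads of cfa-miR-378 in each library, with the tissues in order of the median (black bar). Filled circles have 20 or more reads of the 5p arm and open circles fewer. Colon, liver and sciatic nerve sit low with filled circles and ileum low with both kinds, kidney, heart and skeletal muscle higher with wide spread, and the bone marrow values are all open.

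Another 4 rows carried a miR-378 name. hsa-miR-378e had 3139 reads in 70 of 76 libraries, and hsa-miR-378f, hsa-miR-378g and rno-miR-378b had 76, 102 and 130 reads. These names belong to close relatives in sequence, read assignment between near-identical rows cannot be settled from counts, and together with the dog gene table naming 1 miR-378 locus this makes their identity uncertain. Of these 4 only hsa-miR-378e passed the filter on low counts. It was at 78.2, 79.0, 91.1, 52.1 and 72.7 RPM in liver and at 73.2, 73.7, 97.1, 17.9 and 74.5 RPM in heart, where the ranges overlapped (log2 difference of heart over liver -0.07, edgeR adjusted p = 1). In the 4-tissue comparison it stood at 3.11 (edgeR adjusted p = 3.89e-18), near the value of cfa-miR-378. Among the 6 pairs it was higher in heart and skeletal muscle than in kidney (1.47 and 1.94, edgeR adjusted p = 0.0402 and 0.00612) and lower in kidney than in liver (-1.54, edgeR adjusted p = 0.0307). Per 1000 reads of cfa-miR-378 it had a median of 2.54 reads in liver, 1.15 in heart and 1.17 in kidney, and the 7.45 of plasma rests on 1 to 19 reads per library.

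The miRNAs most like miR-378 were sought among the 265 other miRNAs with a tissue median above 100 RPM, by Pearson's r over the 16 tissue means of log2(RPM + 1). This is a description over 16 tissues that share libraries, depth and the red cell share. The 5p arm of the same hairpin was first, with r = 0.94. The next was rno-miR-193b-3p at r = 0.65, highest in liver (median 1072 RPM), followed by the muscle miRNAs cfa-miR-133a (0.62), cfa-miR-1 (0.62) and cfa-miR-133b (0.59). No other miRNA above 100 RPM exceeded 0.8. Among the rarer miR-378 names, below that limit, r was 0.91 for hsa-miR-378e, 0.85 for rno-miR-378b, 0.80 for hsa-miR-378f and 0.62 for hsa-miR-378g. The muscle miRNAs parted from miR-378 outside heart and skeletal muscle. cfa-miR-133a had a median of 80340 RPM in heart, but 53.7 RPM in liver and 92.2 RPM in kidney, where miR-378 had 31213 and 14852 RPM. The least alike were cfa-miR-103 (r = -0.65), cfa-miR-383 (-0.64) and cfa-miR-1839 (-0.64), all highest in brain, at medians of 7085, 209 and 234 RPM. With Spearman's rho 2 of the 5 most alike and 0 of the 3 least alike were shared, and with tissue medians or TMM-scaled RPM 4 of the 5 and 1 of the 3. The 5p arm was first in each of the 4 ways of measuring.

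A list of 20 miRNAs linked in earlier work to metabolism, without miR-378, was set beside it in the 4-tissue comparison. Of the 20, 9 were higher, 4 lower and 7 not called, against 23.5% higher and 16.2% lower of all 480. The median log2 difference of the list was 0.29 against -0.16 for all. The list holds cfa-miR-1, cfa-miR-208b, cfa-miR-499 and cfa-miR-122, which also served as markers of heart, skeletal muscle or liver. That these were higher in the group follows from the choice of list, so its counts do not describe metabolism miRNAs in general. The 3 highest were cfa-miR-1, which is enriched in muscle (4.70, SE 0.419, edgeR adjusted p = 3.04e-15), cfa-miR-208b, which lies in a myosin heavy chain gene (4.43, SE 0.377, edgeR adjusted p = 1.68e-16), and cfa-miR-122, the main hepatocyte miRNA with a known part in lipid metabolism (3.36, SE 0.473, edgeR adjusted p = 1.08e-08). These 3 differed from miR-378 in where they were found. cfa-miR-1 had a median of 4429 RPM in heart and 1535 RPM in skeletal muscle, but 1.36 RPM in kidney and 0.385 RPM in liver. cfa-miR-122 had 22008 RPM in liver and at most 7.02 RPM as the median of heart, skeletal muscle and kidney. miR-378, at a log2 difference of 3.14, would stand between cfa-miR-122 and cfa-miR-499 (2.96), and its median was 14852 RPM or more in each of the 4 tissues. The 3 lowest were cfa-miR-15b (-1.11, edgeR adjusted p = 1.24e-07), cfa-miR-33a, which lies in the sterol regulator gene SREBF2 (-1.03, edgeR adjusted p = 0.0455), and cfa-miR-181c, which has been found in heart mitochondria (-0.68, edgeR adjusted p = 0.000453). Of these, cfa-miR-33a was rare, with medians of 1.63 RPM in heart, 0 in skeletal muscle, 0.678 in kidney and 5.34 in liver, so its difference rests on few reads.

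**Figure D5:**
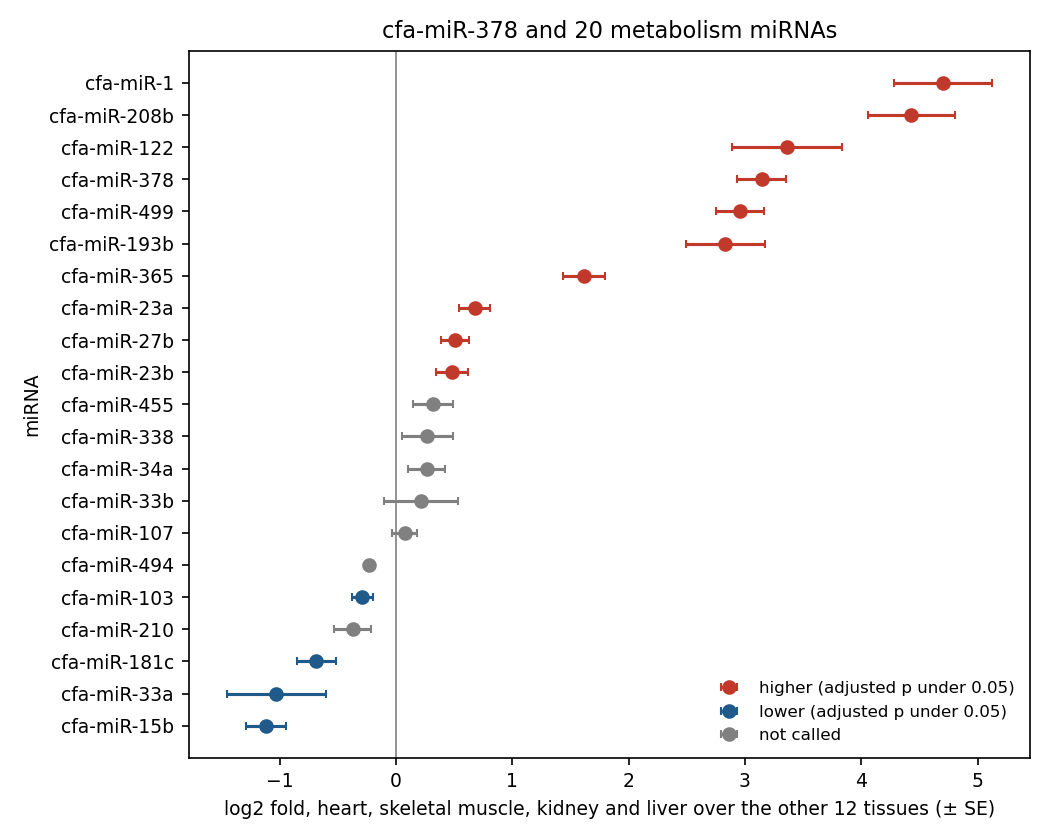
Difference in mean log2 level between heart, skeletal muscle, kidney and liver and the other 12 tissues for cfa-miR-378 and 20 metabolism miRNAs, with SE. No SE is drawn for cfa-miR-494, for which it could not be estimated. Red points are called higher, blue points lower and grey points not called. cfa-miR-378, at 3.14, lies just below cfa-miR-122.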

How the data were processed

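The data are deposited counts of miR-seq reads per miRNA, from TruSeq small RNA libraries sequenced on a GAIIx. To make the counts, the authors clipped adaptors, aligned reads to CanFam3.1 with OSA v4 allowing 0 mismatches, dropped reads with more than 10 genomic locations, and counted reads that overlapped at least 70% of a miRNA locus named from dog, rat or human entries of miRBase 21. The deposited RPM values are these counts scaled by the authors to the miRNA reads of each library. They were recomputed from counts and totals, with a relative difference of at most 2.89e-09, and missing entries were set to 0. A column with the highest RPM over all samples was not used. Of 77 labelled samples, 1 colon sample had no values here, and 1 sample name in the table could not be assigned and was not used.

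edgeR 4.0.16 was fitted to all 16 tissues (filterByExpr, TMM, quasi-likelihood), with p-values adjusted by Benjamini-Hochberg over 480 miRNAs at a limit of 0.05, and the SE taken as the log2 difference over the square root of F. R 4.3.3 also ran DESeq2 1.42.0, while tables, exact tests and plots were made in Python 3.11.15 (matplotlib 3.10.9, scipy 1.17.1, pandas 2.3.3, numpy 2.4.6). On simulated counts of the 4-tissue comparison, over 420 miRNAs, 99.4% of 177 miRNAs changed 4-fold and 2.88% of the unchanged ones were called. The simulated libraries were independent, with a fixed spread and, apart from that change, the same mean in all tissues. The real tissues differ and share dogs, so these rates need not hold for the real data. A library without a read of a miRNA could still hold up to 0.380 to 19.0 RPM of it, the worth of 3 reads. Alternatives were the scaling, the filter, the tool, pseudocounts, medians, the tissues compared and each library left out in turn. The 15% marker rule and the removal of the reads of the red cell list were added after the data were seen.

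The miRNA, the lists and the tests were chosen with earlier results of these data known. Named rows are all rows with a miR-378 name, the 5 most and 3 least alike, and the 3 highest and 3 lowest of the metabolism list. The gene table of UU_Cfam_GSD_1.0 was used for names and neighbours only. All tissues came from the same 5 dogs, but the labels give no dog number, so the fits treat libraries as independent and the p-values measure the spread between these samples. Replicate numbers only follow the order of the samples and were not used to pair them.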

Additional observations from a re-analysis of the deposited data

Results flagged for a closer look

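Of 30 groups of 4 or 5 libraries tested with Dixon's criterion (miR-378 level and arm ratio), 5 held a library farther from the others than its 95% limit, where chance gives about 1 in 20. Pancreas replicate 4 had 8443 RPM of miR-378 against 1562 to 2403 RPM in the other 4 libraries. Testis replicate 2 had 11060.4 RPM against 1717 to 4276 RPM, and ileum replicate 4 had 14710.0 RPM against 7927 to 9226 RPM. Testis replicate 2 was low in testis markers (678 RPM), ileum replicate 4 had the lowest intestinal markers of its group (13274 RPM), and pancreas replicate 4 had the highest pancreas markers (17110 RPM). For the arm ratio, brain replicate 4 had 15.2 reads of the 5p arm per 1000 of the 3p arm against 3.30 to 4.61 in the other 4 brain libraries, and plasma replicate 1 had 10.9 against 0 to 2.48. The plasma value rests on 1 read of the 5p arm.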

How the results depend on the processing

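Of 34 results, 145 of 161 values under other settings and 2450 of 2508 values with 1 library left out were labelled unchanged. For the tests this means the same direction and the same side of the limit. For counts it means a similar count, and for folds over all other libraries a move smaller than the SD between the libraries of the tissue. The skeletal muscle fold was thus labelled unchanged at 5.91 (TMM) and 5.57 (medians), although these pass the limit of 5 and the main value of 3.59 does not. With library size alone, ileum against the other 15 tissues was 0.020, kidney 0.63, heart against skeletal muscle 0.043 and skeletal muscle against liver 0.93, the last and kidney no longer called. Without a filter sciatic nerve was -0.025. Heart against liver was called with DESeq2 size factors (1.45), with the DESeq2 test (1.45) and without the 9 libraries low in markers (1.12), where ileum was 0.21 and thymus -0.32. The thymus fold over all other libraries was 4.98 with medians and 0.451 without the 9 libraries. The enrichment rule was met in 1 tissue with TMM-scaled RPM and in 2 with medians. With each library left out in turn, ileum ran from -0.37 to 0.079, sciatic nerve from -0.12 to 0.32, heart against skeletal muscle from -0.93 to 0.014, heart against liver from 0.99 to 1.38 and skeletal muscle against liver from 1.25 to 1.99, the last losing its call without skeletal muscle replicate 2 (1.25). The changes of call and direction come from the setting itself or from fewer libraries, and their cause was not tested. Shallow libraries limit the 5p arm more than miR-378. No paired analysis was made because the labels give no dog or replicate number, although the tissues share dogs.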
